A study of Mus musculus with 8 samples.

Results

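The genes described here are 10 genes of the vascular lining: the receptor genes Tie1, Tek, Kdr and Flt1, the junction and adhesion genes Cdh5, Pecam1, Esam and Emcn, the von Willebrand factor gene Vwf and the transcription factor gene Sox17. They were taken by name, among 17305 mouse genes that the arrays' probes could be paired with, and every probe whose accession maps to one of them was kept, 15 probes of 41174. The genes were put together after earlier results of the same genotype comparison had been seen. Differences between the genotypes are therefore given for them as a description, with no test.

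Endothelial cells line blood vessels and are held together at adherens junctions by VE-cadherin, the product of Cdh5. Their growth and rest are set by 2 receptor systems: vascular endothelial growth factor acts through the tyrosine kinases VEGFR1 (Flt1) and VEGFR2 (Kdr), and the angiopoietins act through TIE2 (Tek) together with its relative TIE1 (Tie1). Some of these genes are also used by blood cells. PECAM1 is carried by monocytes, macrophages and platelets, VEGFR1 by monocytes, von Willebrand factor and ESAM by platelets, and TIE2 by a subset of tumour macrophages that lie along vessels.

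The RNA came from tumour-associated macrophages of C57BL/6 mice. PyMT breast cancer cells, driven by the polyoma middle T oncogene, had been placed orthotopically about 21 days earlier in syngeneic hosts that were wild type (WT) or ATF3 knockout (KO), so that the hosts, and not the implanted tumour cells, differ in genotype. Cells carrying both F4/80 (gene Adgre1), found on macrophages, and CD45 (gene Ptprc), found on leukocytes, were sorted from dissociated tumours. There were 4 samples per genotype, numbered 1 to 4 in each. The labels give no age, do not say whether a sample is a single mouse, and do not describe how the Atf3 allele was disrupted, so any p-value reflects how much these samples vary, which may be technical.

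Each sample was read on its own array with a single dye. The 75th percentile of the processed signal of an array ran from 619 to 926 intensity units. It was 20.6 to 31.9 times that array's median background, and 63.7% to 68.0% of its spots were well above background, the software's mark for a spot that stands clear of its surroundings. Slide 1 held the samples numbered 1 and 2 and slide 2 those numbered 3 and 4, each with both genotypes. Atf3 itself was bright in every sample, with a mean log2 level of 4.80 under the WT label and 5.05 under the KO label relative to each array's 75th percentile. A probe outside the deleted part would check nothing, and the sources used here do not place this one. Groups are therefore named by their labels throughout. The macrophage genes that defined the sort were strong in all samples: Adgre1 gave 7931 to 21002 intensity units and Ptprc 10194 to 24770.

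The promoter table of RefSeq (build GRCm38.p6) holds 5 of the 10 genes. The 120 bases before each start are shown because they put the 4 receptor genes and endomucin side by side, with in capitals each GGAA, the core bound by ETS factors, read as TTCC on the other strand, and in Flt1 also the letters TGACGTCA, the cyclic AMP response element that factors of the ATF/CREB family bind.
Tie1, chr4:118489850-118489969, minus strand: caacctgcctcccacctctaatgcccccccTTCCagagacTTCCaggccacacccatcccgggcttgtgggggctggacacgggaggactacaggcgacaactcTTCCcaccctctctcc
Tek, chr4:94739169-94739288, plus strand: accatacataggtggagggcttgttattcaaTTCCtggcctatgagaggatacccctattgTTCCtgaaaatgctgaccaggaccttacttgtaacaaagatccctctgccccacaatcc
Kdr, chr5:75978456-75978575, minus strand: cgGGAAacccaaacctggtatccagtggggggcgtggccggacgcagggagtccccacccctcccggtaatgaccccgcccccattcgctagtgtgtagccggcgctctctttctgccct
Flt1, chr5:147726012-147726131, minus strand: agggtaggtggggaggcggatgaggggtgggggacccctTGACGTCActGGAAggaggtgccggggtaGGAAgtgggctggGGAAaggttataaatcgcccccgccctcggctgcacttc
Emcn, chr3:137340958-137341077, plus strand: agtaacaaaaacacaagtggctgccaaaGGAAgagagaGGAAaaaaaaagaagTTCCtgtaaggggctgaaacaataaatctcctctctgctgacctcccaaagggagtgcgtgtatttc
Motifs were searched on both strands of the full window of 300 bases, 250 before the start and 50 after it. GGAA was found in all 5 windows and in 96.0% of the 32851 promoters of the table, with 9 matches in Tie1, 2 in Tek, 5 in Kdr, 4 in Flt1 and 6 in Emcn. CAGGAA, which contains GGAA, was found in Tie1, Tek and Emcn and in 30.6% of all promoters, and ACAAT, the core bound by SOX factors, in Tek and Emcn and in 31.0%. TGACGTCA was found in Flt1 alone of the 5, and in 1.79% of all promoters. The AP-1 letters TGANTCA were found in 0 of the 5 and in 7.81% of all. A match is a description of the letters and not a measured binding site.

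TIE1 is a receptor tyrosine kinase with no firmly known ligand of its own that works in a complex with TIE2. Its single probe gave 98.4, 169, 36.5 and 282 intensity units across WT samples 1 to 4, against 11, 113, 21.5 and 110 across KO samples 1 to 4. In both genotypes the samples numbered 2 and 4 were bright and the sample numbered 3 was dim, and the groups overlapped. KO sample 1 was not well above background. Relative to each array's 75th percentile, the log2 level was −2.61 ± 1.24 under the WT label and −4.25 ± 1.53 under the KO label (SD, 4 samples each), so the means differed by −1.64. The KO sample was lower than the WT sample of its number in 4 of 4 cases. Pairs 2 to 4 differed by −1.08, −0.93 and −1.36 on the log2 scale. For pair 1 only an approximate value can be given. With KO sample 1 set at the dimmest signal marked well above background on its array, the difference was −2.96. A probe can be brighter than that floor and still lack the mark, so this is not a strict bound. Over all genes tested, 9.71% were lower in 4 of 4. The log2 difference of the group means was −1.58 with KO sample 1 at that floor, −1.10 without this sample and −2.21 without WT sample 3.

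TIE2, the angiopoietin receptor encoded by Tek, was read by a single probe that was well above background on 0 of 8 arrays. Its signal was 2.64, 3.55, 2.64 and 9.66 intensity units in WT samples 1 to 4, and in the KO samples 3.09, 8.70, 7.04 and 4.06, while the dimmest probe marked well above background on the same arrays gave 10.4 to 16.6. Tek therefore has no measured order between samples, and the probe says only that it was not detectable above background here.

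VEGFR2, the main signalling receptor for vascular endothelial growth factor in endothelium, is encoded by Kdr. The Kdr probe is printed 10 times on every array, which gives the error between spots of an array and leaves out RNA preparation, labelling and hybridisation. Its mean over the spots was 320 ± 18.3, 101 ± 6.23, 149 ± 10.8 and 358 ± 29.1 intensity units across WT samples 1 to 4, against 174 ± 6.39, 170 ± 7.40, 242 ± 16.0 and 246 ± 15.6 across KO samples 1 to 4 (SD, 10 spots each). The highest and the lowest values were both in samples labelled WT, and the 4 KO samples lay between them. On the log2 scale the spots of an array had an SD of 0.089, against 0.86 between the WT samples and 0.35 between the KO samples. The difference of the group means was −0.16, from −1.78 to −1.94, smaller than either group's SD. The pairs went both ways, at −0.92, 0.26, 0.54 and −0.53. It was −0.47 without WT sample 2, and its sign turned to 0.11 without WT sample 1, 0.05 without WT sample 4 and 0.007 without KO sample 2.

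VEGFR1, a high-affinity receptor that also acts as a decoy for vascular endothelial growth factor, is encoded by Flt1 and was read by 2 probes. The brighter one gave 56.0, 214, 47.4 and 429 intensity units across WT samples 1 to 4, against 364, 282, 52.6 and 292 across KO samples 1 to 4. Samples numbered 3 were the dimmest in their genotype and WT sample 4 was the brightest WT sample. KO sample 1, the dimmest KO sample for Tie1, was here the brightest of all on the scaled log2 values. The log2 level was −2.48 ± 1.46 under the WT label and −1.98 ± 1.38 under the KO label (SD, 4 samples each), so the means differed by 0.50, and the groups overlapped. Flt1 was the only one of the 9 genes that passed the filter on dim probes whose group mean was higher in the samples labelled KO. Pair number 1 differed by 2.66, while pairs 2 to 4 differed by −0.09, −0.02 and −0.55. The second probe, well above background on 5 of 8 arrays, read 9.65, 56.8, 12.2 and 110 intensity units in WT samples 1 to 4 and, in the KO samples, 36.3, 49.2, 10.4 and 68.3. WT samples 1 and 3 and KO sample 3 were not well above background for this second probe. Its signals as given had a log2 difference of 0.02, with 1.87 in pair 1 and −0.70, −0.39 and −0.68 in the others. Pair 1 was below background on its WT side. Pair 3 was below background on both sides and has no measured difference. Without KO sample 1 the brighter probe differed by 0.11, and leaving out the other samples gave 0.01 (WT sample 3) to 1.16 (KO sample 3). It gave −0.28 on slide 2 alone and −0.23 with normexp background correction.

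**Figure D1:**
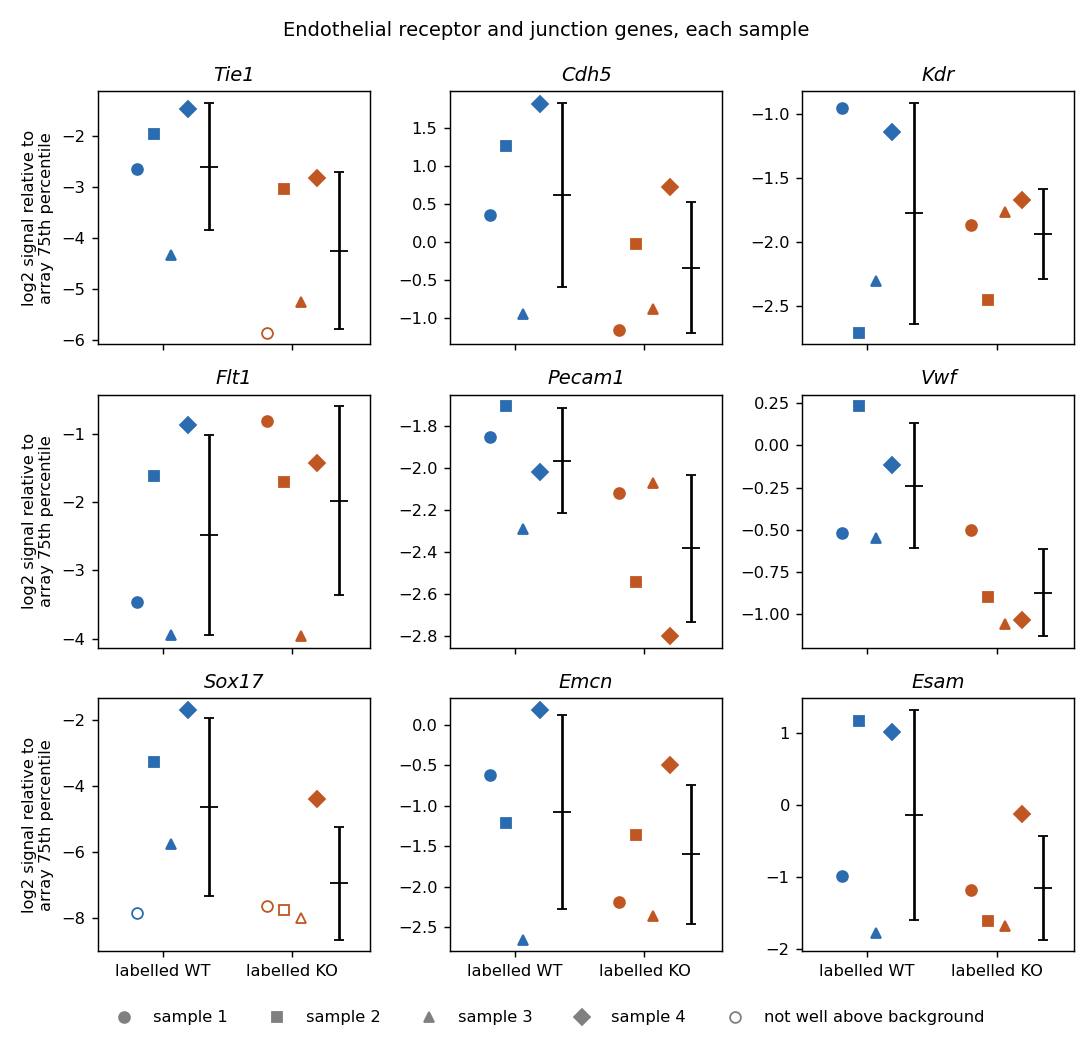
Log2 signal relative to each array's 75th percentile (vertical axis) for the 9 genes that passed the filter on dim probes, in samples labelled WT (blue) and KO (orange), with the marker shape giving the sample number, open markers for arrays not well above background and black bars for mean and SD (n = 4). The ranges of both genotypes overlap in each of the 9 panels, and WT sample 3 is the lowest of the WT samples for 7 of the 9, all but Kdr and Sox17.

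VE-cadherin is the adhesion molecule that defines endothelial adherens junctions. One Cdh5 probe gave 792, 1597, 378 and 2782 intensity units across WT samples 1 to 4, against 285, 913, 445 and 1300 across KO samples 1 to 4. Numbers 2 and 4 were again brighter than number 3 in both genotypes, and KO sample 1 was the lowest of all. The log2 level was 0.62 ± 1.21 under the WT label and −0.33 ± 0.86 under the KO label (SD, 4 samples each), so the means differed by −0.96, with pair differences of −1.52, −1.29, 0.07 and −1.09. The log2 difference was −0.56 without WT sample 4 and −1.48 without WT sample 3. The other Cdh5 probe was well above background on 0 of 8 arrays, at 2.65 to 9.82 intensity units, so the 2 probes disagreed on whether Cdh5 was detected.

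ESAM, encoded by Esam, is an adhesion molecule of endothelial tight junctions and platelets. Its probe gave 313, 1492, 214 and 1589 intensity units across WT samples 1 to 4, against 280, 302, 255 and 722 across KO samples 1 to 4. WT samples 2 and 4 stood above all others, while WT sample 1 lay among the KO samples and WT sample 3 was the lowest of all 8. The log2 difference was −1.01, from −0.14 ± 1.47 to −1.15 ± 0.72 (SD, n = 4 each). Most of it came from pairs 2 and 4, at −2.80 and −1.13, against −0.21 and 0.09 in pairs 1 and 3. It was −0.57 without WT sample 2, −0.63 without WT sample 4 and −1.56 without WT sample 3.

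PECAM1 sits at junctions between endothelial cells and on leukocytes. Its probe, also printed 10 times per array, gave a mean of 173 ± 17.5, 202.5 ± 8.01, 150 ± 12.5 and 195 ± 9.58 intensity units across WT samples 1 to 4, against 148 ± 12.1, 159 ± 9.66, 196 ± 3.58 and 113 ± 3.97 across KO samples 1 to 4 (SD over 10 spots, or 9 in KO sample 4). KO sample 4, bright for Cdh5 and Tie1, was the dimmest sample for Pecam1, and its spots (108 to 119) did not reach those of KO sample 3 (190 to 201). The highest and lowest samples were 2.14-fold apart, the narrowest range among the 9 genes. The log2 difference was −0.42, from −1.96 ± 0.25 to −2.38 ± 0.35 (SD between samples, n = 4 each), with an SD between spots of 0.095. Leaving out WT sample 3 gave −0.53, and leaving out KO sample 4 gave −0.28. Pair 3 differed by 0.22 and the others by −0.27, −0.84 and −0.79.

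**Figure D2:**
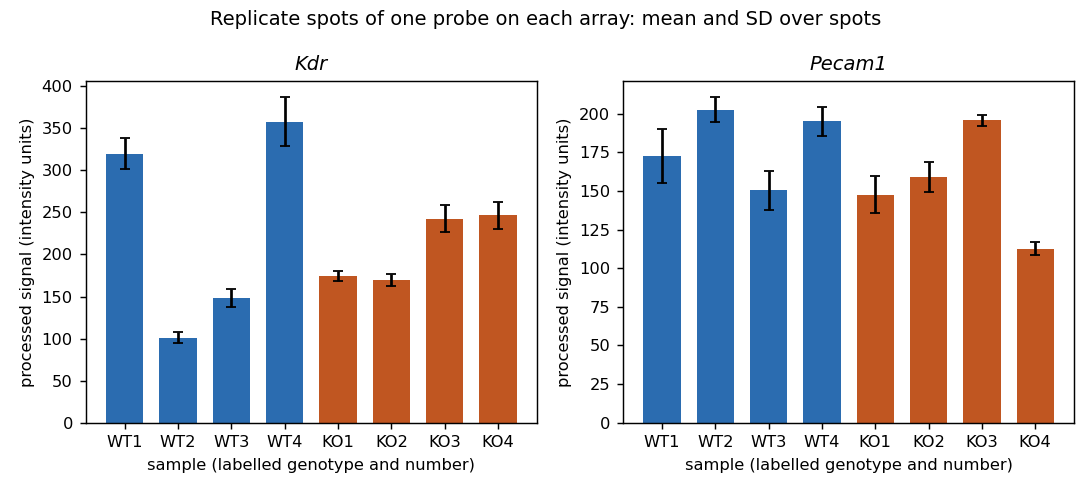
Mean processed signal in intensity units (bars, vertical axis from 0) of the Kdr and Pecam1 probes on each array, with error bars for the SD over the replicate spots of that array. The bars of Kdr in WT samples 2 and 4 (101 and 358) are the lowest and the highest, and Pecam1 spans 113 to 202.5. These signals are not scaled between arrays, and on the scaled log2 values WT sample 1 is the highest for Kdr.

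Endomucin, a sialomucin of capillaries and veins encoded by Emcn, gave 403, 284, 116 and 895 intensity units across WT samples 1 to 4, against 140, 360, 160 and 558 across KO samples 1 to 4. The order of the samples resembled that of Cdh5, with sample 4 the brightest of each genotype. Its log2 difference was −0.52, from −1.08 ± 1.20 to −1.60 ± 0.86 (SD, n = 4 each), which became −0.10 when WT sample 4 was left out and −1.05 when WT sample 3 was. The pairs differed by −1.57, −0.15, 0.30 and −0.68.

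Von Willebrand factor, the platelet-binding glycoprotein stored in endothelial granules and encoded by Vwf, was read by 2 probes. The first gave 432, 774, 500 and 727 intensity units across WT samples 1 to 4, against 451, 496, 395 and 384 across KO samples 1 to 4, and the second 355, 518, 340 and 674 against 407, 360, 263 and 294. The probes agreed in direction in each pair and differed by −0.63 and −0.65 on the log2 scale. With the first probe the log2 level was −0.24 ± 0.37 under the WT label and −0.87 ± 0.26 under the KO label (SD, 4 samples each). Here WT samples 2 and 4 were above every KO sample, while WT samples 1 and 3 lay close to KO sample 1 (−0.52 and −0.55 against −0.50). The pair differences were 0.02, −1.13, −0.51 and −0.92, and the log2 difference stayed between −0.76 and −0.48 when each sample was left out in turn.

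SOX17, a transcription factor of arterial endothelium encoded by Sox17, was read by 3 dim probes. The brightest gave 2.69, 68.3, 13.5 and 242 intensity units across WT samples 1 to 4, against 3.19, 4.25, 3.16 and 37.3 across KO samples 1 to 4. It was well above background in WT samples 2, 3 and 4 and in KO sample 4. It passed the filter on dim probes mainly through the group in which it was brighter, so its log2 difference of −2.31 (−4.64 ± 2.71 against −6.96 ± 1.72, SD, n = 4 each) was partly fixed by that filter. With samples below background set at the dimmest signal marked well above background on their array, it was −1.31. Pair 4, measured on both sides, differed by −2.69. Pairs 2 and 3 have only approximate values at that floor, −2.53 and −0.15, and pair 1 was below background on both sides. Without WT sample 4 the log2 difference of the signals as given was −1.33. A second probe, at 5.47 to 20.9 intensity units, was well above background in WT sample 4 only, and the third, at 3.08 to 4.44, was well above background in 0 of 8 samples.

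**Figure D3:**
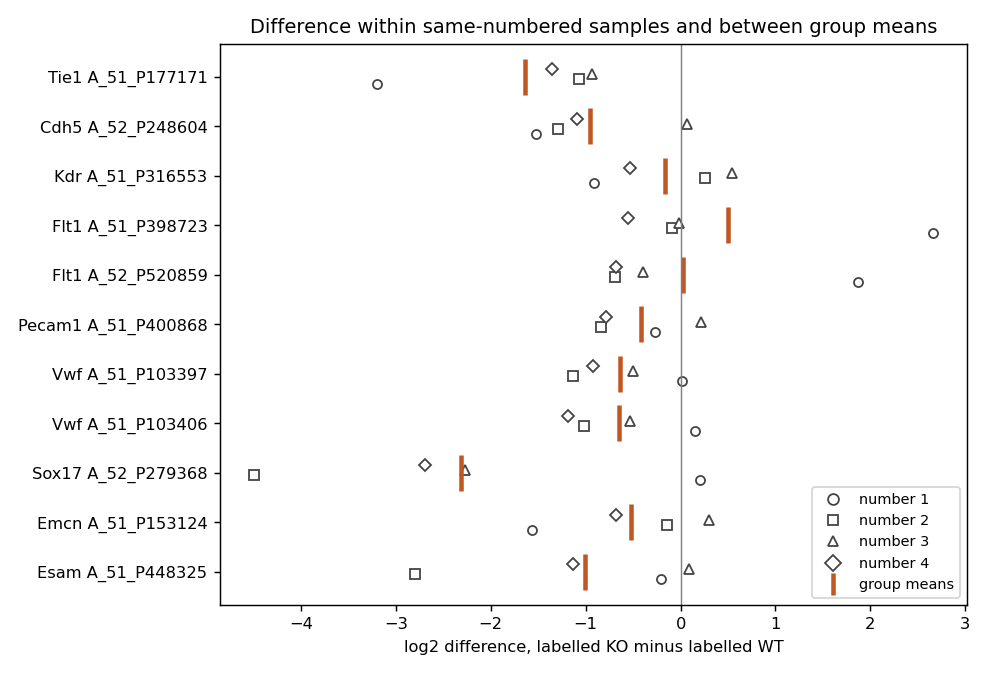
Log2 difference, labelled KO minus labelled WT (horizontal axis), for the 11 member probes that passed the filter on dim probes, one row per probe, with open markers for the 4 same-numbered pairs and orange bars for the difference of the group means. The open markers of Tie1 all lie left of 0, while pair 1 of Flt1 lies far to the right at 2.66.

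The limma fit held 20851 genes, members included, of which 13444 have a gene name and the others are unnamed accessions counted as genes. Its adjusted p was under 0.05 for 0 (0%), and 700 (3.36%) had an unadjusted p under 0.05. These were 467 lower (2.24%) and 233 higher (1.12%) in the samples labelled KO. Of the 10 genes, 9 passed the filter on dim probes, and 8 of these had a lower mean in the samples labelled KO, where the share over all genes was 51.5%. Differences at or below −1 were seen for 3 of the 9, Tie1, Sox17 and Esam, against 3% of all genes. Because the genes were chosen from this contrast, these counts carry no weight of their own. The groups overlapped for each of the 9 genes, while 1.37% of all genes were non-overlapping with KO lower and 0.767% with KO higher. For so few genes a count of 0 is near those shares. The median log2 difference of the 9 genes was −0.63, and that of all genes tested −0.009. Within slide 1 the median of the 9 genes was −0.86 and within slide 2 it was −0.51. In sorted bulk RNA, fewer cells of a type and less RNA per cell cannot be told apart.

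Other genes of the same systems were taken from 6 lists, 84 genes in all, of which 70 were tested. With limma none of the 70 was called over all genes (smallest adjusted p = 0.9999), and 1 was lower and 0 higher at an unadjusted p under 0.05. The replicate numbers, used as a block, raised these to 10 lower and 2 higher, again with 0 called by adjusted p. In that blocked fit 970 of all genes were lower and 610 higher at an unadjusted p under 0.05. Of the 70, 44 had a lower and 26 a higher mean in the samples labelled KO, with a median log2 difference of −0.16, or −0.10 without WT sample 4 or without KO sample 3.

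Among ligands and partners of the TIE receptors, 3 of 5 genes were tested, all with lower means. Angpt2, the angiopoietin that endothelial cells release to destabilise vessels, gave 206, 515, 71.2 and 1297 intensity units across WT samples 1 to 4, against 240, 57.6, 109 and 637 across KO samples 1 to 4, so the log2 means differed by −1.01 (standard error 1.06). Ptprb, the phosphatase that restrains TIE2, differed by −1.59 with a standard error of 0.89 and was well above background in 3 WT samples and 1 KO sample. It passed the filter on dim probes mainly through the group in which it was brighter, so its difference was partly fixed by that filter. Angpt1, the activating ligand, was well above background on at most 1 array and was not tested.

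Of the ligands and partners of the VEGF receptors, 10 of 11 were tested, 9 with a lower mean, with a median log2 difference of −0.24. Vegfa, the principal ligand, was bright and even between genotypes, at 11335 to 28126 intensity units under the WT label and 16007 to 23348 under the KO label (log2 difference 0.01, standard error 0.29). Pgf, placental growth factor, which binds VEGFR1, likewise differed by −0.03 with a standard error of 0.64. The lymphatic receptor gene Flt4 differed by −1.19 (standard error 0.86), the coreceptor gene Nrp1 by −0.25 (0.51) and Nos3, the endothelial nitric oxide synthase, by −0.19 (0.37).

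The junction list went both ways, with 7 of 17 genes lower and a median of 0.14. Cldn5, the claudin of endothelial tight junctions, gave 70.9, 565, 63.8 and 626 intensity units across WT samples 1 to 4, against 27.9, 47.9, 109 and 416 across KO samples 1 to 4, so that WT samples 2 and 4 and KO sample 4 were bright and the others dim. It differed by −1.35 with a standard error of 1.06. F11r, which encodes JAM-A of many cell types, differed by 0.14 (0.18), Icam2 by −0.01 (0.30) and Jam2 by 1.43 (0.87), the latter higher in the KO sample of each of the 4 pairs. Its relative Jam3 was chosen after its values were seen, as the single gene of the 70 at an unadjusted limma p under 0.05. Jam3 differed by −1.14 (0.46) and was well above background in 3 WT samples and 1 KO sample. It passed the filter on dim probes mainly through the group in which it was brighter, so this difference was partly fixed by that filter.

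Among endothelial transcription factors 7 of 10 were lower, with Sox7 at −0.59 (standard error 1.03), and Erg and Sox18 did not pass the filter. In the list of other endothelial surface genes 18 of 27 were lower, with a median of −0.27. Robo4, a guidance receptor of endothelium, gave 726, 773, 80.2 and 1196 intensity units across WT samples 1 to 4, against 58.6, 645, 73.5 and 962 across KO samples 1 to 4. It was dim in the samples numbered 3 and in KO sample 1, as Tie1 and Cdh5 were. Its log2 difference was −1.26 (1.17), and those of Egfl7, Plvap, Eng, Cd34 and Cd93 were −1.09 (0.76), −0.74 (0.79), −0.26 (0.19), −0.13 (0.58) and −0.27 (0.24), with standard errors in parentheses. Clec14a did not pass the filter. Of the lymphatic list 3 of 6 were tested and all had higher means, with a median of 0.19. Each of the 3 was lower in the KO sample of 2 of 4 pairs. For Ccl21a, named after its values were seen, the higher mean came from KO sample 4 alone. That sample gave 1064 intensity units, against 9.46 to 15.7 in the other KO samples. Ccl21a was well above background in 3 WT samples and only 1 KO sample.

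Spread between samples differed from gene to gene. For Tie1 and Sox17 the lowest samples were below background and were set at the dimmest signal marked well above background on their array. Highest and lowest samples were then about 17.5-fold and 18.3-fold apart. They were 8.91-fold apart for Flt1, 7.91-fold for Cdh5, 7.74-fold for Esam and 7.16-fold for Emcn, but 3.37-fold for Kdr, 2.44-fold for Vwf and 2.14-fold for Pecam1. WT sample 4 was the highest sample for 4 of the 9 genes and WT sample 2 for 3, and KO sample 3 was the lowest for 3. The last count includes Sox17, for which 4 samples were below background and have no measured order. WT sample 3 and KO sample 1 were each the lowest for 2. For the other 70 endothelial genes WT sample 4 was the highest in 29 (41.4%, against 17.4% of all genes) and KO sample 3 the lowest in 19 (27.1%, against 10.2%).

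How far the genes moved together was described on deviations from each genotype's mean, which leave out the contrast used to choose them. The measure was Pearson's r over the 8 arrays, given without a p because same-numbered samples move together. Among the 7 genes well above background on all 8 arrays, Cdh5 and Emcn were the most alike (r = 0.90), then Cdh5 and Esam (0.87) and Esam and Flt1 (0.78). Against the mean of the other 6, r was 0.84 for Esam, 0.73 for Cdh5, 0.72 for Flt1, 0.67 for Emcn and 0.49 for Vwf, but 0.09 for Kdr and 0.05 for Pecam1. Kdr and Pecam1 were thus the least like the others over these 8 arrays.

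Against the mean profile of the 7 genes, r was over 0.7 for 21 of the 70 other endothelial genes, 30.0%, where 10.02% of all other genes tested passed that value. Sox7 (0.89), Angpt2 (0.87), Plvap (0.85) and Cd34 (0.83) were among them. Another 7 of the 70 had r under −0.7, as did 2333 of the 20842 other genes tested. Eng (0.24) and Icam2 (0.19) had low r, and Cd93 (−0.38), F11r (−0.50) and Nrp1 (−0.68) went the other way. Among lists of other cells the share differed widely. It was 7 of 9 fibroblast markers (77.8%, with 1 of the 9 under −0.7) and 8 of 13 tumour epithelial markers (61.5%). For pericyte and smooth muscle markers it was 6 of 11 (54.5%), among them Pdgfrb (0.76) but not Rgs5 (0.48). It was 1 of 9 for platelet and megakaryocyte markers (11.1%), 0 of 9 for T cell markers, 0 of 4 for adipocyte markers and 0 of 3 for erythroid markers. It was also 0 of 13 for macrophage markers, whose median r was −0.68, and 0 of 8 for genes of TIE2-expressing and perivascular macrophages, with a median of −0.80 (Mrc1, the mannose receptor, −0.82). The 10 genes with the highest r were H1f0 (0.97), Dclk2, Bsg, Rnf183, Fam89a, Exoc3l4, Scara3, Slc20a1, Vegfa and Tmem43 (0.95).

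Scores of these lists, the mean log2 deviation of their genes from each gene's mean, were set side by side for each sample. The score of the 9 endothelial genes ran from −0.74 to 1.51 under the WT label and from −1.02 to 0.42 under the KO label, lowest in the samples numbered 3 and highest in those numbered 4 within each genotype. Over the 7 genes well above background on all 8 arrays the same held, from −0.83 to 1.07 and from −0.73 to 0.26. The fibroblast score was likewise lowest in the samples numbered 3 (−1.22 and −1.07) and highest in those numbered 4 (0.59 and 1.18), and so was the tumour epithelial score (−1.58 and −1.53, then 1.23 and 1.65). Macrophage markers ran the other way, at 0.47 and 0.43 in the samples numbered 3 and −0.65 in both numbered 4.

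Genotype differences of the other lists are given beside those of the endothelial genes, and no test of one list against another was made. The median log2 difference was 0.20 for 9 fibroblast markers, 0.07 for 13 tumour epithelial markers, −0.07 for 11 pericyte and smooth muscle markers, −0.04 for 13 macrophage markers and −0.01 for 9 platelet and megakaryocyte markers, and no gene of these lists was called by limma. By pair, KO minus WT, the endothelial score over the 7 genes well above background on all 8 arrays was −0.26, −0.86, 0.10 and −0.81. Over all 9 genes it was −0.53, −1.29, −0.28 and −1.08, but pair 3 was −0.03 without Sox17, and the members were chosen from this contrast. The KO sample was lower in 1 of 4 pairs for the fibroblast score, 0 of 4 for the tumour epithelial score and 3 of 4 for the pericyte score. Adgre1 differed by −0.07 (standard error 0.38), Ptprc by −0.10 (0.36) and Mrc1 by −0.03 (0.54). From the platelet list, Pf4 and Itga2b differed by −0.01 (0.32) and 0.17 (0.17). Pf4 gave 6677 to 17148 intensity units and Itga2b only 21.0 to 35.9. Their r with the members' profile was −0.79 and 0.69. Whether either signal came from platelets was not tested. The part that RNA of these cell types has in the endothelial values was not tested.

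**Figure D4:**
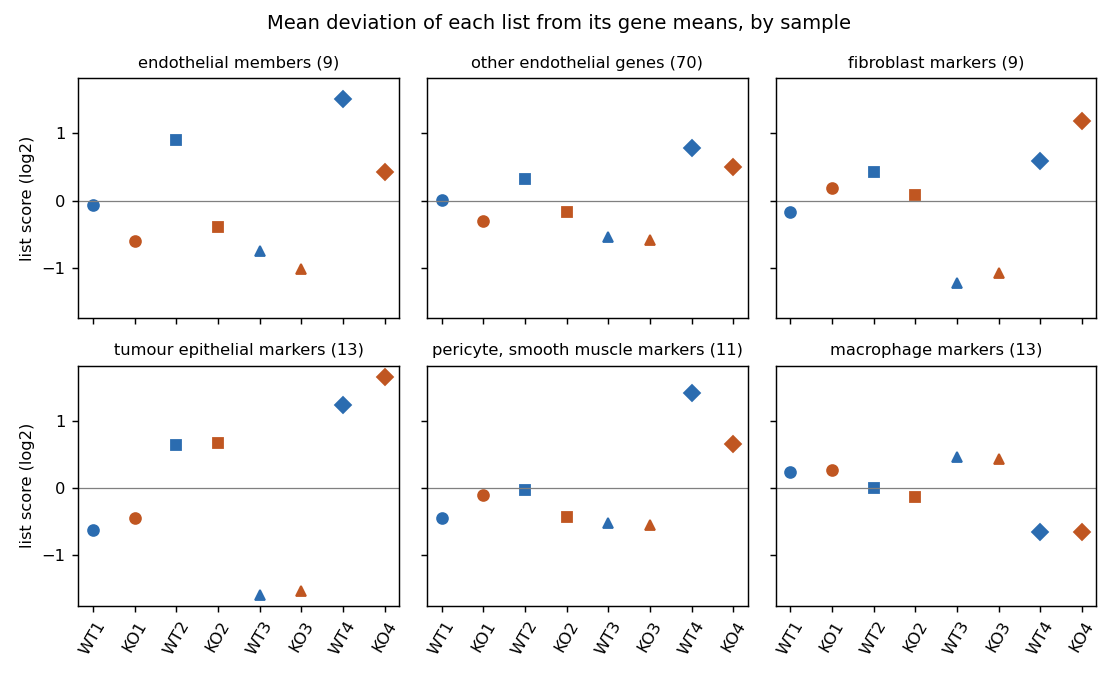
List score in log2 units (vertical axis), the mean deviation of a list's genes from their means over the 8 samples, for samples ordered by number and labelled WT (blue) or KO (orange), with 1 point per sample and the number of genes in parentheses. The endothelial, fibroblast and tumour epithelial panels are lowest at number 3 and highest at number 4 within each genotype, and the macrophage panel is highest at number 3 (0.47 and 0.43) and lowest at number 4 (−0.65).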

How the data were processed

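RNA of 8 sorted macrophage samples was measured on 1-colour Agilent arrays. Per the file headers, the authors used Agilent Feature Extraction, release 10.7.1.1. Release 10.5 is named in the submitters' processing notes. The deposited files give each spot an intensity already corrected for background, per the file headers. The authors' deposited table of processed intensity values, of unstated scale, served as an alternative.

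Control and outlier spots were left out, log2 processed signals were averaged over the spots of a probe, and the 75th percentile of the array was then taken off. A probe stayed in if 4 or more of the 8 arrays marked it well above background (27118 of 41174). Each of 20851 genes was read by its brightest such probe. An accession without a gene name was counted as a gene of its own, and 13444 of the 20851 have a name. Shares of all genes are shares of the 20851. Accessions were named through RefSeq of GRCm38.p6 (25097 probes named, 16077 not). Genotypes were compared with limma 3.58.1 in R 4.3.3 (lmFit, eBayes, two-sided, Benjamini-Hochberg adjustment). The fit was tried on simulated data in which every sample was drawn independently. That trial cannot show how it behaves where same-numbered samples deviate together. The members and the gene lists were chosen with earlier results of these data known. The text names all members, a preset part of the lists, the sort markers, Atf3 and the 10 genes most like the members. Of 176 other list genes, 9 had no named probe and 18 did not pass the filter. Same-numbered samples deviated together across genes (r = 0.30, 0.14, 0.70 and 0.51 for numbers 1 to 4), all over 0.1, and their differences are given as pairs. For number 2 this was no stronger than between unlike numbers (WT 2 with KO 4, 0.15, and WT 4 with KO 2, 0.14), and the labels do not say what they share. The main limma fit and the standard errors given took no account of the pairs. Pairs entered a fit only where the replicate number was used as a block. The number of arrays limits the precision.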

Additional observations from a re-analysis of the deposited data

Results flagged for a closer look

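The brightest Sox17 probe in KO sample 4 stood apart from the other samples labelled KO. Its log2 level was −4.40, the only one of the 4 well above background, and the gap to the next sample took up 0.896 of the range of the group, above the limit of Dixon's test for 4 values. Of 28 groups of 4 examined in this way, 1 passed, and chance passes about 1 in 20. The other 3 values were below background, so their closeness reflects the floor and the gap follows from a single sample being detected.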

How the results depend on the processing

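The count of genes called by limma was 0 in the settings tried except one: leaving out each sample in turn gave 0 to 1, with 1 called without KO sample 1. The count of called genes among the other endothelial genes was 0 in every one of the 20 settings. The median difference of the endothelial members ran from −1.05 without WT sample 3 to −0.51 on slide 2 alone. That of the other endothelial genes ran from −0.22 to −0.10. All settings use the same 8 arrays, and the members were chosen from this contrast, so a median below 0 throughout is no separate support. Settings that change only the block or the variance step of the fit cannot move these medians. With the replicate number as a block both medians (−0.63 and −0.16) could not change, as each number holds 1 sample of each genotype. In that fit 0 genes were called by adjusted p. Its counts of other endothelial genes at an unadjusted limma p under 0.05 did rise, to 10 lower and 2 higher. Normexp background correction, made on the median signal, moved the median of all genes from −0.009 to −0.14, so its differences are to be read against that shift. The number of other endothelial genes with r over 0.7 to the members' profile was 21, beside 10.02% of all other genes, and 35, beside 15.8%, with deviations taken within each genotype on each slide. Leaving out each sample gave between 15 (11.3% of all), when WT sample 4 was dropped, and 32 (12.8%), when KO sample 1 was. The cause was not tested. Single member differences changed sign for Kdr and Flt1 only, in 4 and 2 settings. Kdr and Pecam1 had no value in the deposited table used here, and Tie1 and Sox17 had none under the strictest filter. Signal over background limits Tek, the second Cdh5 probe and the third Sox17 probe, well above background on 0 of 8 arrays. Setting samples below background at the floor of their array, and scoring only the members detected on all 8 arrays, were chosen after seeing the data.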

Other observations

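Lists of other cells gave these values in the same samples. T cell markers had higher means in the samples labelled KO for 8 of 9 genes tested, with a median log2 difference of 0.51, and the list score was higher in the KO sample of 4 of 4 pairs. Of the adipocyte markers 4 of 8 were tested (median 0.05), and of the erythroid markers 3 of 6, all with lower means (median −0.42). The erythroid score was the widest of all lists between samples, from −1.88 in KO sample 3 to 2.60 in WT sample 2. No gene of these lists was called by limma.

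Among 9 platelet and megakaryocyte markers, 3 had an unadjusted limma p under 0.05, where 3.36% of all genes did, and they are named here after their values were seen. Gp1bb and Treml1 were lower by log2 differences of −1.39 and −0.73, with the groups not overlapping (1.37% of all genes did not overlap with KO lower), and Clec1b was higher by 1.33. None passed over all genes (limma adjusted p = 0.9999 for each).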
